A study of Mus musculus with 8 samples.

Results

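Serum response factor (SRF), encoded by Srf, and its 6 cofactor genes Myocd, Mrtfa, Mrtfb, Elk1, Elk3 and Elk4 were examined in the mouse aorta by taking every probe set of the array annotated to exactly 1 of these symbols. This gave 19 probe sets for 7 genes, out of 45037 probe sets and 18193 named genes, and 15 of the 19 passed the filter on dim probe sets. The mutant group held 4 arrays of aorta from SRF-flex2neo mice that also carried SM22CreERT2ki/+, a tamoxifen-inducible Cre recombinase knocked into one allele of the SM22 gene, which smooth muscle expresses, and is labelled a smooth muscle specific SRF knockout. The control group held 4 arrays of aorta from SRF-flex2neo littermates without the Cre. Both groups therefore carried the modified Srf gene, were 4 month-old, and received 1 mg of tamoxifen intraperitoneally for 3 days. They were killed 8 days after tamoxifen, and each array was made from 2 ug of total RNA. The Cre acts in SM22-expressing cells only, whereas RNA was taken from the whole aorta, so cells of other types keep Srf. The series title gives the question as the early effect of Srf deletion on vascular gene expression.

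SRF is a MADS-box transcription factor that binds DNA as a dimer at a sequence called the CArG box and activates genes mainly through partner proteins. Myocardin (Myocd), found in smooth and cardiac muscle, and the related proteins MRTF-A (Mrtfa) and MRTF-B (Mrtfb) drive genes of the actin cytoskeleton and of smooth muscle contraction, and the MRTFs are held in the cytoplasm by actin monomers until actin polymerizes. The ternary complex factors Elk1, Elk3 and Elk4 are ETS proteins that bind DNA beside SRF, respond to phosphorylation by mitogen-activated protein kinases, and drive immediate-early genes. Myocardin and the ternary complex factors compete for a shared site on SRF.

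The titles number 2 sets, each with 2 mutant and 2 control arrays: mutants 1 and 2 with controls 1 and 2 in set 1, and mutants 3 and 4 with controls 3 and 4 in set 2. The meaning of the set number is unstated. Nothing in the labels ties an array to its own mouse, and p-values here therefore cover array-to-array spread, possibly technical. Array medians lay between 3.72 and 3.98 on the log2 scale. Mutant 2 stood apart, with correlations across probe sets of 0.961 to 0.974 with the other arrays, whose pairs reached 0.992 to 0.997 in the same set and 0.983 to 0.988 across sets, and differences of members between mutant and control that moved by over 1.5 times without it are given both ways. The tissue label fitted its markers: the 8 smooth muscle markers summed to 156641 to 168609 in mutants and 175697 to 190065 in controls on the linear scale. Most markers of other cell types had higher means in mutants, although 0 passed an adjusted p of 0.05 in any of the 7 marker lists. The median difference on the log2 scale was 0.95 over 12 endothelial genes (1.36 in set 1 and 0.49 in set 2), 1.12 over 8 fibroblast genes (1.47 and 0.85) and 1.20 over 14 leukocyte genes (1.99 and 0.44). Adipocyte markers had a median of 1.14 over 6 genes and nerve sheath markers of 1.52 over 4, which were 0.46 and 0.44 without mutant 2. The adipocyte median was 2.76 in set 1 and -0.47 in set 2, where all 6 were lower, and the 4 skeletal muscle markers were lower, with a median of -0.16. In whole-tissue RNA, fewer cells of a type and less RNA per cell cannot be told apart.

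Srf itself carried SRF-binding sequence in its promoter. The window from 250 bases before to 50 bases after its start (RefSeq, GRCm38.p6, chr17:46556113-46556412, minus strand) is shown because Srf is a known target of its own protein. Capitals mark, in order from the 5′ end, 1 ETS core CCGGAA, the sequence that ternary complex factors prefer, and 2 CArG boxes (2 C, 6 bases that are A or T, 2 G).
Srf promoter: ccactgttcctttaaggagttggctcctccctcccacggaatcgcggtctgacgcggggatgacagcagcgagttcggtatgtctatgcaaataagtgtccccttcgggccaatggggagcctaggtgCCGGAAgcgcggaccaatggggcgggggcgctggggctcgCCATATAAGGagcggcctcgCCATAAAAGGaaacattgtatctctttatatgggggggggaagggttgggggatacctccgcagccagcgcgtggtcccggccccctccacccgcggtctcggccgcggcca
The CArG boxes began at -82 and -62 relative to the start, and the ETS core at -122. Both motifs were searched on both strands, and their letters do not allow them to overlap. With this search, a CArG box was found in 1.63% of 32851 promoter windows of the same length, and CCGGAA in 14.9%. Of the other members, 5 had windows in the table, none with a CArG box. CCGGAA was found in windows of Elk4 and Mrtfb. A match describes letters in a window and shows no binding.

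Srf RNA did not differ detectably between mutant and control aorta. In its brighter probe set, 1418255_s_at, mutants were at 10.21, 9.54, 10.32 and 10.34 on the log2 scale and controls at 10.52, 10.20, 10.15 and 10.34. Mutant 2 was the lowest of the 8 arrays, the other 3 mutants lay inside the control range, and the groups overlapped. The fitted difference, mutant minus control, was -0.20 (SE 0.19, 95% confidence interval -0.64 to 0.24, limma adjusted p = 0.686), and was -0.01 without mutant 2 and -0.08 without control 1. As a ratio the interval runs from 0.640 to 1.18, so a 2-fold fall in the RNA read by this probe set lies outside it. The dimmer probe set, 1418256_at, was at 5.75, 5.44, 6.00 and 5.86 in mutants and at 6.00, 5.61, 5.81 and 5.76 in controls. That difference was -0.03 (SE 0.15, adjusted p = 0.939), and 0.07 without mutant 2 and 0.08 without control 1. Where these probe sets lie relative to the deleted part of Srf is unstated, and their values do not check the deletion. In set 1 the brighter probe set differed by -0.49 and in set 2 by 0.09, and the interaction of genotype and set was not past the threshold (difference 0.57, adjusted p = 0.824).

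**Figure D1:**
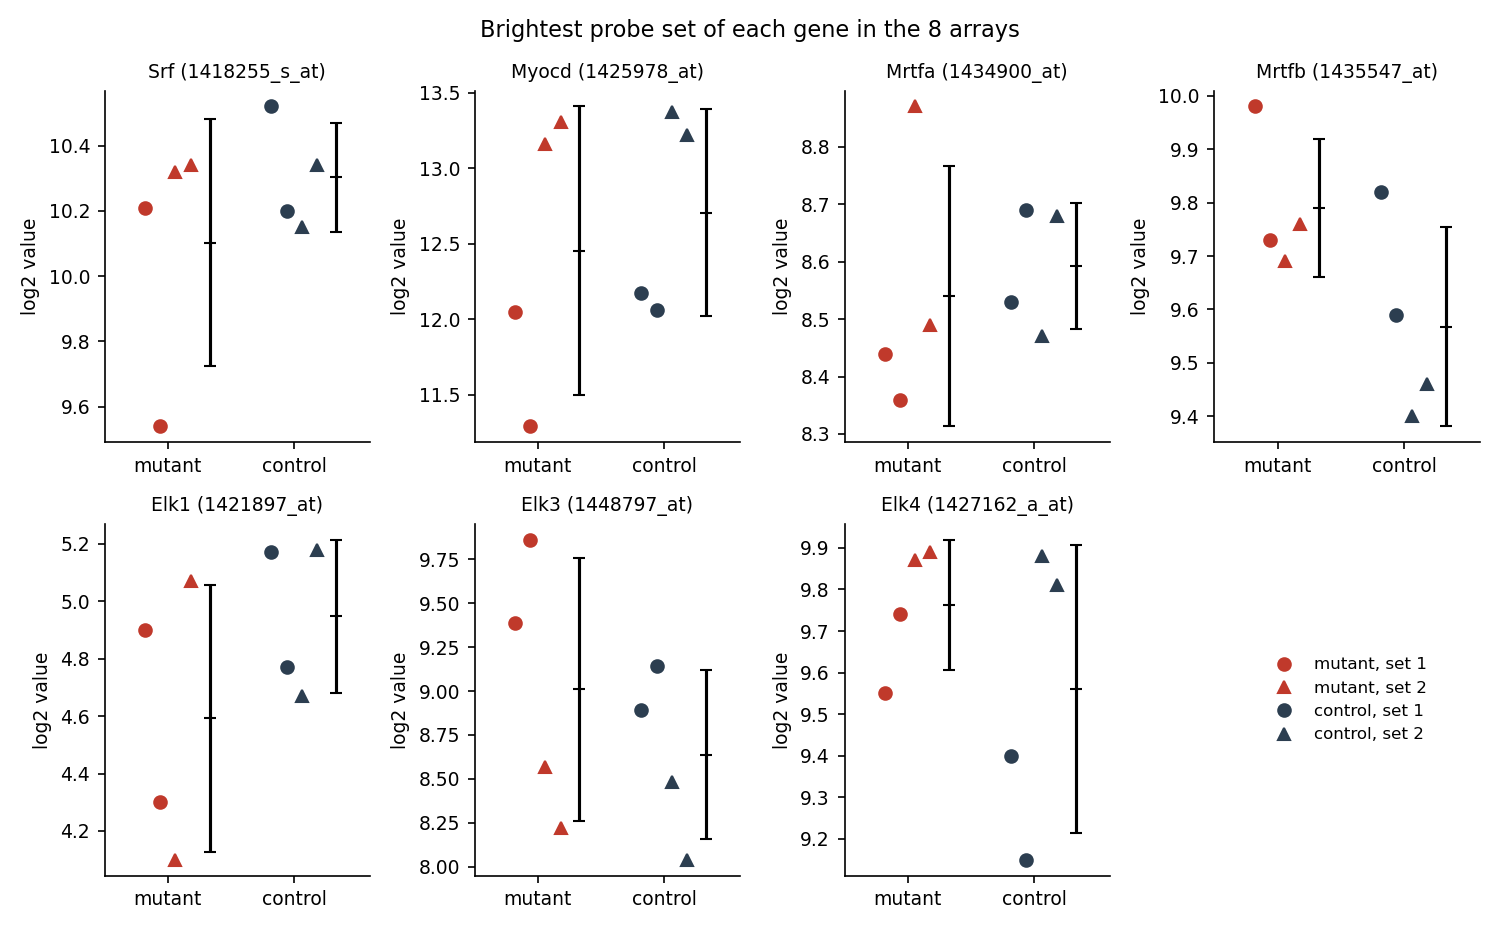
Log2 value (vertical axes, each panel with its own scale) of the brightest probe set of each of the 7 genes, with 4 mutant arrays left and 4 control arrays right. Circles are set 1 and triangles set 2, the bar is the mean with its SD (n = 4), and in all 7 panels the mutant and control ranges overlap.

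Of the 15 member probe sets tested, 0 passed an adjusted p of 0.05 between mutant and control, as did 0% of all 27023 probe sets tested. At an unadjusted p under 0.05 there were 3, 1 of Mrtfb and 2 of Elk3, all higher in mutants, beside 9.55% of all probe sets (4.5% higher and 5.05% lower). In all, 7 of the 15 were higher and 8 lower, with a median difference of -0.03, and -0.04 over all probe sets tested. These counts include Elk1 1421896_at, Elk3 1445886_at and Elk4 1447571_at, which lay near a level of 3. The median equals the difference of that Elk1 probe set, so it says little about direction. Mutants and controls did not overlap in 0 of the 15, against 3% of all probe sets tested. The interaction of genotype and set gave 0 calls among the 15 (adjusted p from 0.824 to 0.991, 0 at an unadjusted p under 0.05), where 0.0518% of all probe sets tested were called and 5.12% had an unadjusted p under 0.05.

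**Figure D2:**
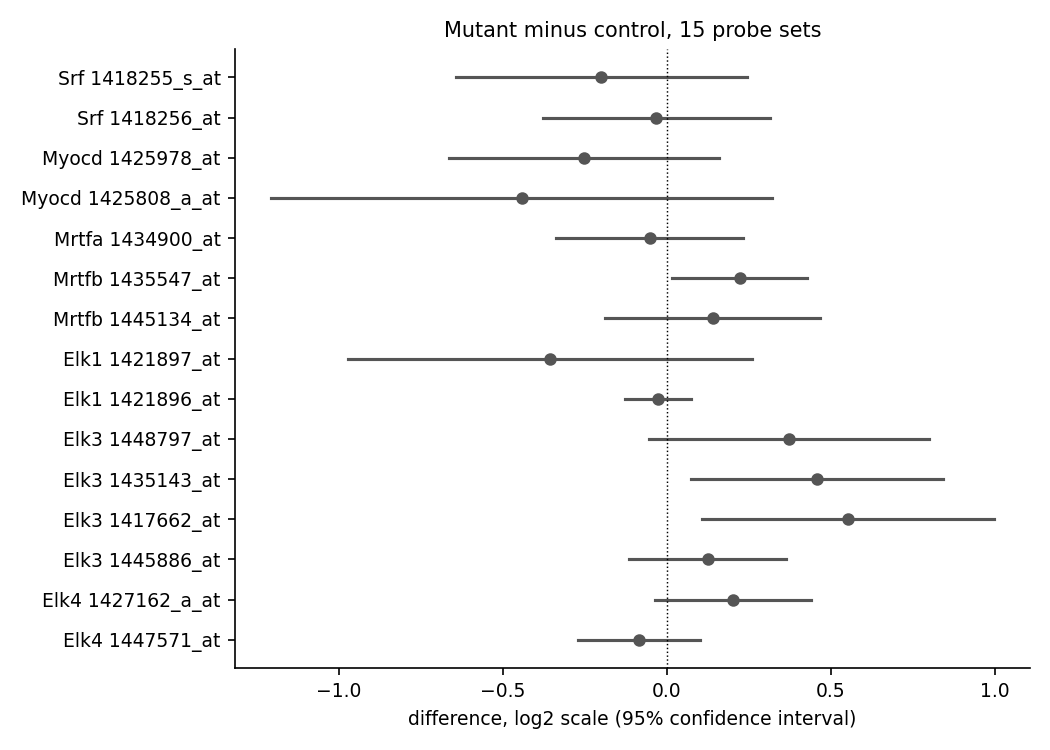
Difference between mutant and control aorta on the log2 scale (horizontal axis) for the 15 member probe sets that passed the filter, as points with 95% confidence intervals from limma. All are grey because none passed an adjusted p of 0.05, and Elk3 1417662_at (0.55) and Myocd 1425808_a_at (-0.44) are the highest and the lowest.

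Myocd, the gene of the muscle-restricted coactivator myocardin, was measured by 2 probe sets. The brighter, 1425978_at, was at 12.05, 11.29, 13.16 and 13.31 in mutants and at 12.17, 12.06, 13.37 and 13.22 in controls. Within each set the mutants and controls lay close together except for mutant 2, which was lowest. The difference was -0.25 (SE 0.17, 95% confidence interval -0.66 to 0.16, adjusted p = 0.622) and -0.06 without mutant 2. The other, 1425808_a_at, was at 8.14, 6.80, 7.71 and 8.22 in mutants and at 8.20, 7.99, 8.59 and 7.86 in controls, again lowest in mutant 2. It differed by -0.44 (SE 0.32, 95% confidence interval -1.21 to 0.32, adjusted p = 0.635), and by -0.14 without mutant 2.

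Mrtfa, whose protein MRTF-A senses the pool of actin monomers, had 1 probe set. Mutants were at 8.44, 8.36, 8.87 and 8.49 and controls at 8.53, 8.69, 8.47 and 8.68, with the highest array and the lowest both mutant. The difference of -0.05 (SE 0.12, 95% confidence interval -0.34 to 0.23, adjusted p = 0.875) was within the spread between arrays, and was -0.005 without mutant 2 and 0.011 without control 2. Mrtfb encodes MRTF-B, the other actin-regulated member. Its brightest probe set, 1435547_at, was at 9.98, 9.73, 9.69 and 9.76 in mutants and at 9.82, 9.59, 9.40 and 9.46 in controls. In each set the mutant mean was the higher, by 0.15 in set 1 and 0.29 in set 2, although control 1 exceeded 3 of the mutants. The fitted difference was 0.22 (SE 0.09, 95% confidence interval 0.02 to 0.43), with an unadjusted p of 0.0376 and an adjusted p of 0.51, and it was 0.29 without mutant 2. A second probe set of Mrtfb, 1445134_at, differed by 0.14 (SE 0.14), or by 0.04 without mutant 3, and the third, at 2.22 to 2.33 on all arrays, was left out by the filter.

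Elk1, the ternary complex factor best known for carrying growth factor signals to SRF, was dim on these arrays. In its brightest probe set, 1421897_at, mutants were at 4.90, 4.30, 4.10 and 5.07 and controls at 5.17, 4.77, 4.67 and 5.18. Mutants 2 and 3 lay below every control, and the difference was -0.36 (SE 0.26, 95% confidence interval -0.97 to 0.26, adjusted p = 0.637), or -0.23 without mutant 2, -0.16 without mutant 3 and -0.55 without mutant 4. Probe set 1421896_at stayed between 2.94 and 3.03 and 1446390_at, left out by the filter, between 2.70 and 2.93, so neither gives a usable level of Elk1.

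Elk3, also known as Net, can repress as well as activate SRF targets and in mouse embryos is expressed in endothelium. Its 3 brighter probe sets had higher means in mutants, and none passed. The brightest, 1448797_at, was at 9.39, 9.86, 8.57 and 8.22 in mutants and at 8.89, 9.14, 8.48 and 8.04 in controls. Both set 1 mutants exceeded all controls, while the set 2 mutants lay inside the control range. The difference was 0.37 (SE 0.18, 95% confidence interval -0.06 to 0.80, adjusted p = 0.558), and 0.23 without mutant 2. Probe set 1435143_at was at 6.71, 7.15, 6.48 and 6.37 in mutants and at 6.24, 6.30, 6.38 and 5.96 in controls. In this probe set 3 mutants were above every control and mutant 4 just below control 3, a difference of 0.46 (SE 0.16, adjusted p = 0.484). Probe set 1417662_at was at 5.08, 5.22, 4.25 and 4.29 in mutants and at 4.28, 4.75, 4.18 and 3.42 in controls, which overlap. It differed by 0.55 (SE 0.19, 95% confidence interval 0.11 to 1.00, adjusted p = 0.473), the largest of the 15. Without mutant 2 the differences of the last 2 were 0.33 and 0.51. The fourth probe set, 1445886_at, was at 2.91 to 2.97 on all arrays except mutant 2, where it was 3.38, and its difference was 0.13, or 0.02 without mutant 2.

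The endothelial marker mean and the 3 brighter Elk3 probe sets shared their highest and lowest arrays. Relative to the mean of the 8 arrays, the mean of the 12 markers was 0.84, 1.52, -0.37 and -0.27 in mutants 1 to 4 and -0.32, 0.04, -0.52 and -0.93 in controls 1 to 4. Mutant 2 was highest and control 4 lowest in this mean and in each of the 3 brighter Elk3 probe sets. Mutant 1 was second highest in all of them. The ranks between were not all shared: in 1435143_at control 2 (6.30) lay below control 3 (6.38), although its marker mean was the higher. The top ranks were not particular to endothelium: mutants 1 and 2 were also above every other array in the leukocyte, adipocyte and nerve sheath means. Control 4 was lowest in none of those means, and the fibroblast mean was highest in mutant 3. Of the 12 endothelial markers 11 were higher in mutants, and all 12 passed the filter. Their summed linear level was 4606 to 14675 in mutants and 3253 to 6687 in controls. The part of these or of the other cell type markers in the Elk3 values was not tested.

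**Figure D3:**
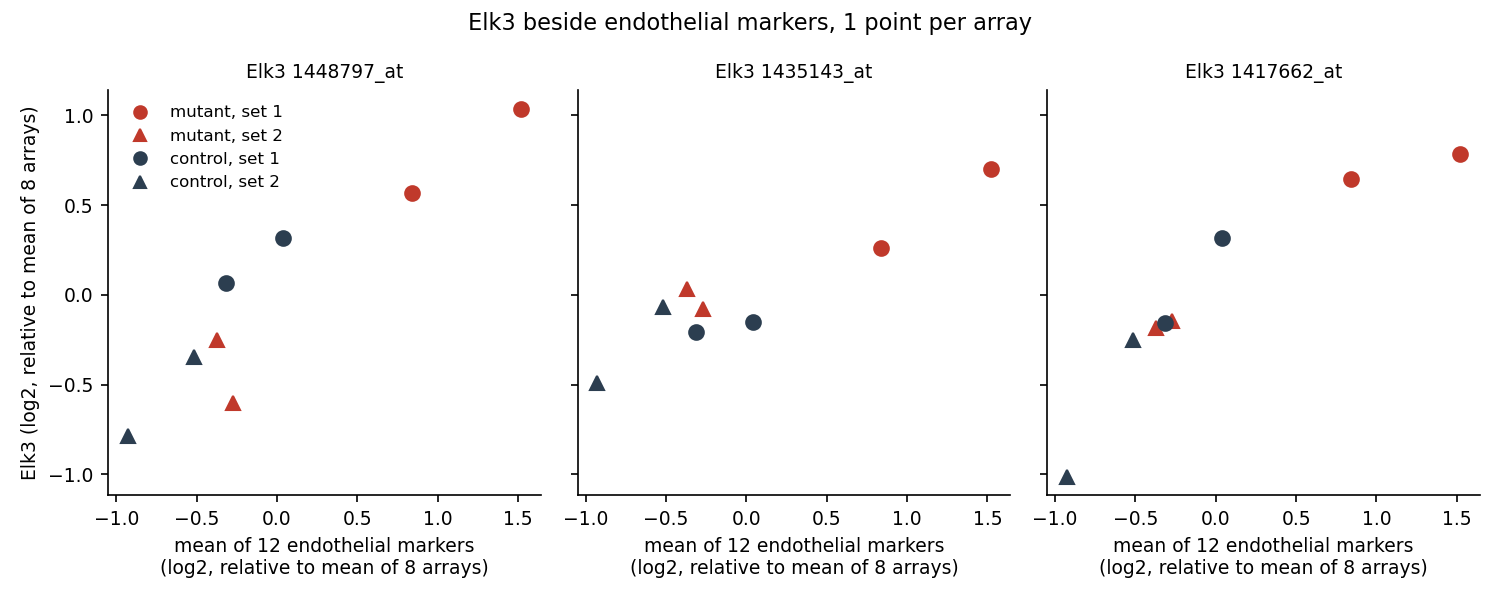
Log2 value of 3 Elk3 probe sets (vertical axis, relative to their mean over the 8 arrays) against the mean of 12 endothelial marker genes (horizontal axis, same scale), 1 point per array, mutants red and controls dark blue, circles set 1 and triangles set 2. In each panel mutant 2 lies at the top right (marker mean 1.52) and control 4 at the bottom left (-0.93).

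Elk4, or SAP-1, was measured mainly by 1427162_a_at. Mutants were at 9.55, 9.74, 9.87 and 9.89 and controls at 9.40, 9.15, 9.88 and 9.81. The set 1 mutants exceeded the set 1 controls, while in set 2 the groups overlapped within a range of 9.81 to 9.89. The difference was 0.20 (SE 0.10, 95% confidence interval -0.04 to 0.44, adjusted p = 0.562), 0.37 in set 1 and 0.04 in set 2. It was 0.13 without mutant 2 and 0.12 without control 2. Probe set 1447571_at differed by -0.09 (SE 0.08) around a level of 3, or by -0.02 without mutant 2, and the other 2, at 1.41 to 1.45 and 2.18 to 2.26, were left out by the filter. The ETS core in the Elk4 promoter is shown with 10 bases on each side (chr1:132007542-132007567, plus strand, GRCm38.p6, capitals marking CCGGAA), since ternary complex factors bind this core.
Elk4 ETS core: ggcccctcccCCGGAAgtgacgctcg

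Myocd, Elk3 and Elk4 each had a probe set that differed between the array sets. Between set 2 and set 1, with genotype in the fit, 4 of the 15 probe sets passed an adjusted p of 0.05, 2 higher and 2 lower in set 2, beside 21.4% of all probe sets tested (10.9% higher and 10.6% lower), so that the share among the members was near the background. Myocd 1425978_at was at 13.37, 13.22, 13.16 and 13.31 in set 2 and at 12.17, 12.06, 12.05 and 11.29 in set 1. These ranges do not overlap, as is the case for 31.7% of all probe sets tested, and the set 2 arrays spanned 0.21. The difference of 1.37 (SE 0.17, 95% confidence interval 0.96 to 1.78, adjusted p = 0.00295) is a 2.59-fold change. The other Myocd probe set differed by 0.31 (SE 0.32, 95% confidence interval -0.45 to 1.08, adjusted p = 0.498), so the 2 readings of this gene gave different sizes and the difference between them was not tested. Elk3 was lower in set 2, by -0.99 in 1448797_at (SE 0.18, adjusted p = 0.0105) and by -0.80 in 1417662_at (SE 0.19, adjusted p = 0.0258). Its probe set 1435143_at differed by -0.30 (SE 0.16, adjusted p = 0.213) and did not pass. Of the 12 endothelial markers, 7 were called lower in set 2 and 0 higher, with a median of -1.09, and their part in the Elk3 values was not tested. Elk4 1427162_a_at was higher in set 2, by 0.40 (SE 0.10, adjusted p = 0.0318). In that probe set all 4 arrays of set 2 lay above those of set 1. Srf differed between sets by 0.17 (SE 0.19, adjusted p = 0.525), or by -0.02 without mutant 2, and Mrtfa by 0.12 (SE 0.12, adjusted p = 0.48). Of the 4 calls, those of Myocd and of Elk3 1448797_at held whichever array was left out. The call of Elk3 1417662_at was lost when mutant 1, 3 or 4 or control 2 or 4 was left out (highest adjusted p 0.0742). That of Elk4 was lost when any 1 array other than mutant 2 was left out (highest adjusted p 0.0905).

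**Figure D4:**
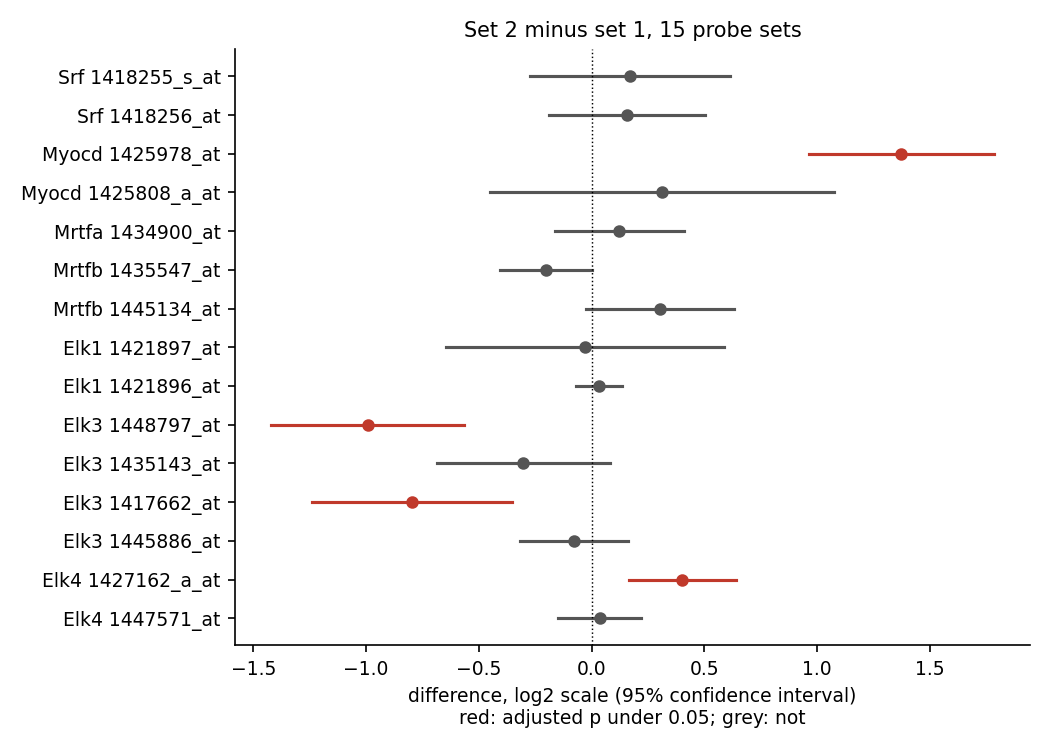
Difference between set 2 and set 1 on the log2 scale (horizontal axis) for the 15 member probe sets, as points with 95% confidence intervals from limma with genotype in the fit. The 4 in red passed an adjusted p of 0.05, with Myocd 1425978_at at 1.37, Elk4 1427162_a_at at 0.40, and Elk3 1417662_at and 1448797_at at -0.80 and -0.99.

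The genes whose profile over the 8 arrays was most like that of each member were found by the smallest root mean square difference between profiles, each taken relative to its own mean, among 12166 genes. This is a description, and the profiles share the arrays and their depth of signal. For Srf, whose own profile deviated from its mean by 0.27 on this measure, they were Ptprs (0.05), Virma (0.06) and Prpsap1 (0.06), which are all lowest in mutant 2, at 10.48, 8.38 and 10.22, and highest in control 1. For Myocd they were Map2k3os (0.13) and Mtus2 (0.14), of which Mtus2 differed between set 2 and set 1 by 1.46. For Elk3 they were Plxnd1 (0.11), a semaphorin receptor, and Gypc (0.15), which differed between mutant and control by 0.47 and 0.28. The nearest were Wdr34 and Fchsd2 for Mrtfa, Nde1 and Chic2 for Mrtfb, Traf6 and Sgms2 for Elk1, and Gclc and Osbpl11 for Elk4, at differences of 0.04 to 0.15.

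Most actin and contractile genes known as SRF targets were lower in the mutant aorta, although none passed the adjusted threshold. Of 45 tested, 38 were lower and 7 higher, with a median difference of -0.21, beside 55.0% of all 12173 genes lower and a median of -0.02. At an unadjusted p under 0.05 there were 16 lower and 3 higher, which is 42.2% of the list beside 10.4% of all genes tested. Without mutant 2, 36 were lower and the median was -0.13. It was -0.21 in set 1 and -0.11 in set 2, with 37 lower in each. The list holds all 8 smooth muscle markers and was chosen with earlier results of these arrays known, so it is not independent evidence of direction. Its mean relative to the 8 arrays lay between -0.19 and -0.03 in mutants and between 0.04 and 0.21 in controls, without overlap, in arrays where endothelial, fibroblast and leukocyte markers were higher, and their part was not tested. The 4 genes with the smallest p were Pdlim7, a cytoskeletal adaptor, at 12.30 ± 0.18 in mutants and 12.92 ± 0.24 in controls (SD, n = 4 each, difference -0.62, limma adjusted p = 0.375), Tagln (-0.29), Myh11 (-0.21) and Tln1 (-0.31). Tagln encodes SM22, and its value cannot be told apart from any effect of the Cre placed at that gene in mutants only. Myh11 is the smooth muscle myosin heavy chain and Tln1 encodes talin, which links integrins to actin.

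Promoter windows were held for 38 of the 45 genes of this list. A CArG box was found in 9 of their 46 windows, from 8 genes, beside 1.63% of all windows. The list was made of genes known as SRF targets, so its higher share is not independent evidence. All matches in the list are shown, as letters of the kind that SRF can bind, and binding was not measured. Each has 10 bases on each side (RefSeq, GRCm38.p6, capitals marking the CArG box).
Actg1 (chr11:120348566-120348595, minus strand): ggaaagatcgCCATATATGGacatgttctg
Cnn2 (chr10:79988534-79988563, plus strand): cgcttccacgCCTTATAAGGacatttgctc
Fhl1 (chrX:56779571-56779600, plus strand): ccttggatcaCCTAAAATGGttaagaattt
Fhl2 (chr1:43163973-43164002, minus strand): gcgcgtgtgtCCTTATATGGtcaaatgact
Fhl2 (chr1:43196838-43196867, minus strand): catttagagaCCAAAAAAGGcttgcaggag
Filip1l (chr16:57549170-57549199, plus strand): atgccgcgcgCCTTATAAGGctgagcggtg
Myl6 (chr10:128493040-128493069, minus strand): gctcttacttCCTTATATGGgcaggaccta
Myl9 (chr2:156775293-156775322, plus strand): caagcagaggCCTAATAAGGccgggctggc
Vcl (chr14:20929161-20929190, plus strand): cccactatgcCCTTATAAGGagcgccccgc
Their differences ran in both directions and none passed. Myl6, a myosin light chain, differed by -0.47 (SE 0.13), Filip1l by -0.36 (SE 0.10), the LIM proteins Fhl1 by -0.11 (SE 0.07) and Fhl2 by 0.53 (SE 0.15). Cnn2, a calponin, differed by -0.09 (SE 0.09) and Myl9, the regulatory myosin light chain of smooth muscle, by -0.07 (SE 0.05). Gamma actin Actg1 differed by 0.04 (SE 0.06) and vinculin Vcl, which anchors actin at adhesions, by 0.02 (SE 0.10). Without mutant 2, Fhl1 and Myl9 differed by -0.04 each and Vcl by 0.12. Fhl2 and Filip1l, which both carry a box, had differences of opposite sign.

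Immediate-early genes, the targets of SRF with ternary complex factors, showed no common direction. Of 17 tested, 7 were higher and 10 lower with a median of -0.03 (-0.06 without mutant 2), and 1 had an unadjusted p under 0.05. Over all genes tested, 55.0% were lower and 10.4% had an unadjusted p under 0.05. The 4 with the smallest p were Ier3 (-0.58, SE 0.24, adjusted p = 0.523), Fosb (-1.16, SE 0.55), Junb (0.57, SE 0.30) and Ier2 (0.33, SE 0.17). Without mutant 2, Junb differed by 0.32 and Ier2 by 0.17. Fosb and Junb encode AP-1 subunits. The number lower was 5 without control 1, 7 in set 1 and 14 in set 2. Promoter windows were held for 14 of the 18 genes of this list, and the rest were not covered. Among the 14, Egr2, an early growth response factor, was the 1 gene with a CArG box in a window. Egr2 differed by 0.31 (SE 0.24), or by 0.05 without mutant 2 and by -0.05 in set 2. A gene without a match may still hold a box outside its window.

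**Figure D5:**
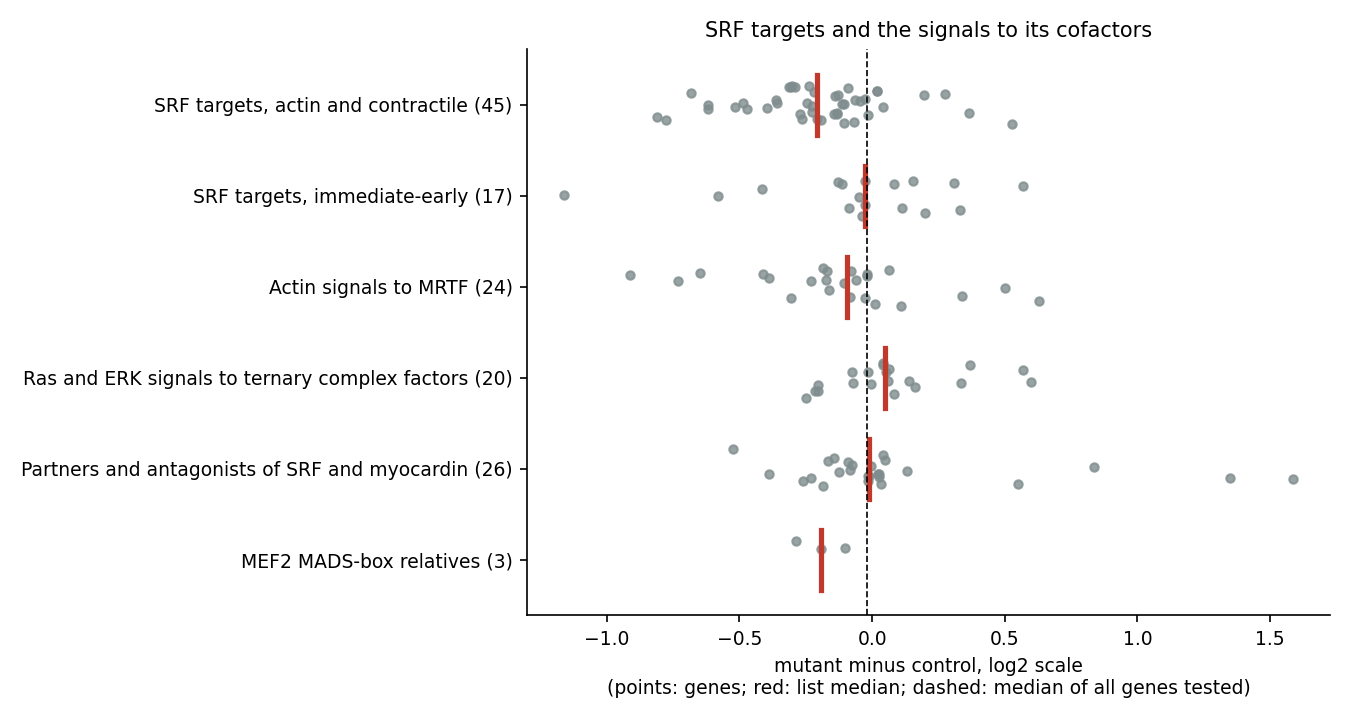
Difference between mutant and control aorta on the log2 scale (horizontal axis) for the genes of 6 lists, with 1 point per gene, the number tested in brackets, the list median as a red line and the median of all genes tested (-0.02) dashed. The actin and contractile targets have a median of -0.21 and the immediate-early targets of -0.03.

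Genes of the actin signals that release the MRTFs were lower in 18 of 24, with a median of -0.10, 0 passing, 4 lower and 1 higher at an unadjusted p under 0.05, beside the 55.0% of all genes lower and the 10.4% under that p. In set 1, 18 were lower with a median of -0.17, and in set 2, 13 with a median of -0.03. The median was -0.04 without mutant 2. Mical2, an enzyme that oxidizes actin and favours MRTF activity, was at 8.08 ± 0.17 in mutants and 8.81 ± 0.29 in controls (SD, n = 4 each), a difference of -0.73 (SE 0.16, adjusted p = 0.384). Next were the actin-severing Cfl2 (-0.39), the actin monomer-binding profilin Pfn1 (-0.65) and the cofilin phosphatase Ssh2 (0.34). Genes that carry Ras and mitogen-activated kinase signals to the ternary complex factors were higher in 12 of 20, beside 44.4% of all genes. Their median was 0.05, with 0 passing. The direction was not stable: 13 were lower with median centring (median -0.03), 11 in set 2 alone (-0.05), and 10 with array weights (-0.001), without mutant 2 (0.005) or without control 2 (0.004). The 4 with the smallest p were the scaffold Ksr1 (0.37), the adaptor Shc1 (-0.22), the calcineurin subunit Ppp3ca (0.34) and the kinase Araf (-0.20).

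Partners and antagonists of SRF and myocardin were higher in 11 and lower in 15 of 26 (57.7%), near the 55.0% of all genes lower. Their median was -0.01, with 0 passing. Klf4, a zinc finger factor known to repress myocardin-dependent genes in smooth muscle, was at 10.62 ± 0.11 in mutants and 9.78 ± 0.47 in controls (SD, n = 4 each), a difference of 0.84 (SE 0.20, adjusted p = 0.384). That difference was 1.255 in set 1 and 0.42 in set 2, where control 3 was at 10.40. Hopx, a homeodomain-only protein that binds SRF, differed by 1.59 (SE 0.58), and by 0.95 without mutant 2. Tead1, which binds muscle promoters, differed by -0.26 and Heyl, a Notch target, by -0.52. The related MADS-box genes Mef2a (-0.29), Mef2d (-0.19) and Mef2c (-0.10) were the 3 of 4 tested and did not pass. Without mutant 2 they differed by -0.14, -0.08 and -0.02.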

How the data were processed

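Affymetrix mouse arrays were hybridised with biotinylated cRNA made from aortic total RNA, per the labels' protocols. The authors' deposited values are log2 values per probe set, from 0.90 to 15.82. The submitters' processing notes name GCOS. Background correction, normalization between arrays and probe summarization are unstated, so that a common scale is assumed, with quantile normalization and median centring as alternatives. The number of arrays limits the precision.

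Values were used as deposited. The platform annotation gave 1 symbol for 34945 of 45037 probe sets, more than 1 for 932 and no symbol for 9160. A filter removed the dimmest 40% by mean over the 8 arrays, keeping 27023 with means of 2.97 or more. Each probe set was fitted by genotype plus set in limma 3.58.1 (R 4.3.3) with a trended prior variance. P-values are two-sided, adjusted by Benjamini-Hochberg across every probe set kept, with 0.05 as threshold, and each SE is the moderated one. The set is the number in the titles, shared by both groups, and enters as a block. The procedure was tested on simulated data with the means, set effects and residual spreads of these arrays. Of changes of 0.5, 1 and 2 on the log2 scale it recovered 20.6%, 63.9% and 90.9%, with 6.4 false calls per simulated table. Most changes of 0.5 in those tables were therefore missed. Each table held 200 changed probe sets, and recovery with an array as far from the others as mutant 2 was not tested. Lists used the brightest probe set of each gene and had no set test.

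The members, the 6 gene lists, the 7 marker lists and the rule for named genes (every member probe set, the 4 genes of smallest p in each list, and the nearest profiles) were chosen with earlier results of these data known. The genes with a CArG box, Egr2 among them, are named outside that rule. Alternatives were other filters and scalings, no set term, no trend, array weights, each array left out and each set alone. Figures were drawn with Python 3.11.15.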

Additional observations from a re-analysis of the deposited data

Results flagged for a closer look

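In 3 of 30 groups of 4 arrays, 1 array lay farther from the other 3 than Dixon's 95% critical value allows, where chance flags about 1 in 20 groups, and in each case it was mutant 2. Srf 1418255_s_at was at 9.54 there, beside 10.21 to 10.34 in the other mutants. Elk3 1445886_at was at 3.38 there, and Elk4 1447571_at at 2.85. Mutant 2 also had the highest marker means for endothelium (1.52) and nerve sheath (3.75) and the highest summed adipocyte marker level (88846, beside 16696 to 36522 on the other arrays), and their part was not tested.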

How the results depend on the processing

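None of the 15 member probe sets was called between mutant and control in any alternative, including the fit with no replicate block (no set term), which gave 0 calls. The lowest adjusted p in any of them was 0.169 (Mrtfb 1435547_at). Over all probe sets, 10 were called with array weights and 0 to 11 when 1 array was left out, the 11 without control 3. Of 249 values of members under alternatives, 240 kept their direction, 1 was 0 (Elk3 1445886_at in set 2 alone) and 8 turned: in set 2 alone Srf 1418255_s_at (0.085), Srf 1418256_at (0.145), Mrtfa (0.105) and Elk4 1447571_at (0.005), with array weights Srf 1418256_at (0.0288), and with 1 array left out Srf 1418256_at (-0.096 to 0.081) and Mrtfa (-0.16 to 0.011). Between sets, 2 to 5 member probe sets were called when 1 array was left out and 3391 to 7511 of all probe sets. There the sign turned with quantile normalization for Elk1 1421897_at (0.101), Elk1 1421896_at (-0.00188) and Elk4 1447571_at (-0.000938), and with median centring for Elk1 1421897_at (0.0675) and Elk3 1445886_at (0.0175). When 1 array was left out the range was -0.021 to 0.291 for Srf 1418255_s_at, -0.227 to 0.161 for Elk1 1421897_at, -0.139 to 0.029 for Elk3 1445886_at and -0.031 to 0.087 for Elk4 1447571_at. Causes were not tested. Probe sets near a level of 3 or below were nearly constant, so that signal over background limits what they show.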
